A study of Mus musculus with 12 samples.

Results

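Liver and gonadal adipose tissue (GWAT) were compared in the samples whose probe for Cav1, the gene of caveolin-1, was the higher of its tissue. The members were 6 of the series' 12 arrays: the 3 titled wild type liver and the 3 titled caveolin-1 knockout GWAT. The knockout-titled GWAT arrays were taken by a rule on the measured Cav1 value, because Cav1 ran against the genotype labels in fat. Genotype labels in GWAT are therefore quoted as labels, and "GWAT" below means these 3 arrays unless another group is named.

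All 12 samples came from male FVB mice, and tissue was taken in the light phase under ketamine and xylazine. Livers came from mice aged 12 weeks and GWAT from mice aged 8 weeks. The other 6 arrays, 3 of caveolin-1 knockout liver and 3 of GWAT labelled wild type, formed a separate comparison of the same tissues. RNA was labelled with biotin and hybridised to Illumina bead arrays of 45281 probes. Neither whether the knockout is whole-body nor whether replicates were separate animals is given in the sources used here, so p-values reflect no more than how these 3 arrays per group scatter, and that scatter may be technical. Tissue, age and the authors' separate normalisation of each tissue cannot be told apart. The study itself compared genotypes within each tissue.

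Liver is built mainly of hepatocytes, which make plasma proteins, bile acids and urea, store glycogen and release glucose, and of sinusoidal lining cells and resident macrophages (Kupffer cells). Gonadal fat is built mainly of adipocytes filled with a single lipid droplet, set among capillaries, fibroblasts, macrophages and a mesothelial cover. Caveolae are small pits of the plasma membrane, shaped by caveolins and coated by cavins, and are plentiful in adipocytes and continuous endothelium and sparse in hepatocytes. Both organs take up, make and store lipid, and for many steps each is known for its own form of an enzyme or carrier.

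Values are log2 intensities after background correction and quantile normalisation over the 6 arrays, a step that compares the tissues by rank. A probe was above background where it exceeded the 95th percentile of receptor probes (olfactory, vomeronasal and trace amine receptors) on its array, which held for 33.7% to 36% of probes in liver and 44.8% to 47% in GWAT. A gene was called when its limma adjusted p was under 0.05 and its difference at least 2-fold. The brightest probe stood for its gene. Another probe passed the filter for 4254 genes, and probes were called in opposite directions for 26. Among called genes given below, another probe differed by under 2-fold for Prkar2b (log2 -0.573), Ogn (-0.412), Idh3a (-0.194), Gpnmb (-0.503) and Ehd2 (-0.484). The same held for others, such as Per3 (-0.144), Cpa3 (-0.074), Nnmt (-0.526) and Nr1i3 (0.402), and for Igf1r (0.21) and Lpin1 (0.098) the sign was opposite. Where the dim tissue was below background on all 3 arrays, the fold is a lower bound, taken from the bright tissue's mean against the background threshold or the dim probe's own signal, whichever was higher on each array; the fitted log2 differences of such genes depend on the background correction. A dim tissue above background on only some of its arrays gives a fitted fold or difference, not a bound. Among the genes given below with one, the liver was above background on 1 of 3 arrays for Cyp2s1, Gsn, Nnat, Slc2a4, Cidec, Lipe, Lyve1, Mcpt4 and Pi16 and on 2 of 3 for Cavin1, Prkar2b, Pnpla3, Igf1r, Ebf1, Dpt, Bcat1, Itga7 and Tfpi, and GWAT on 1 of 3 for Mat1a, Elovl3, Stab2 and Col27a1 and on 2 of 3 for Ppara. In whole tissue, fewer cells of a type and less RNA per cell cannot be told apart. The arrays were alike within a tissue, with correlations of normalised values of at least 0.984 in liver and 0.992 in GWAT, and 0.658 to 0.662 between tissues.

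Cav1 was among the brightest probes in GWAT and modest in liver. Its single probe, on chromosome 6, had deposited intensities of 172, 167 and 210 in wild type liver and of 14598, 15114 and 17476 in GWAT. The means were 183 ± 23.8 (SD, n = 3) and 15729 ± 1535 (SD, n = 3), a ratio of 85.9 before any correction. It stood between the 78.5th and 82.4th percentile of all probes on the liver arrays and at the 99.7th to 99.8th on the GWAT arrays. In knockout liver it was below background on all 3 arrays, at 114 ± 3.6 (SD, n = 3). In GWAT labelled wild type it was above background on all 3, at 110 ± 2.26 (SD, n = 3). On the normalised scale Cav1 read 6.86, 6.77 and 7.39 on the liver arrays and 13.95, 14.01 and 14.18 on the GWAT arrays. Since Cav1 chose the GWAT arrays, these values are a description and no test of them is given. Cav1 was still fitted with the other genes and is counted among those called higher in GWAT.

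Across the array, 4289 of 11188 genes tested were called (38.3%), 1809 of them higher in liver (16.2%) and 2480 higher in GWAT (22.2%). The largest adjusted p of a called gene was 0.0349, and the tissues' arrays did not overlap for 8368 of the genes tested (74.8%) and for all but 6 of the called genes. By the adjusted p alone, with no limit on fold, 8052 genes differed (72%), 3450 higher in liver (30.8%) and 4602 higher in GWAT (41.1%). A fitted difference of at least 8-fold was found for 499 genes in liver and 467 in GWAT. Genes with a bound were counted here by their fitted difference, and the bound of some is under 8-fold. Among the calls, 296 genes higher in liver were below background on every GWAT array, and 707 higher in GWAT were below background on every liver array. Such genes passed the filter only through the arrays of the brighter tissue, and more probes were above background in GWAT than in liver. Of the 200 brightest probes of each tissue, 87 were shared. The direction split depended on the scaling: GWAT held 57.8% of the calls after quantile normalisation, 82.2% without it and 37.5% when each array was centred on the median gene. The median difference of all genes, liver minus GWAT, was -0.14, -0.79 and 0.36 under these 3 settings, and gene group shifts are read against it. Counts of calls in gene lists are to be read against the 16.2% called in liver and 22.2% in GWAT over all genes tested.

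**Figure D1:**
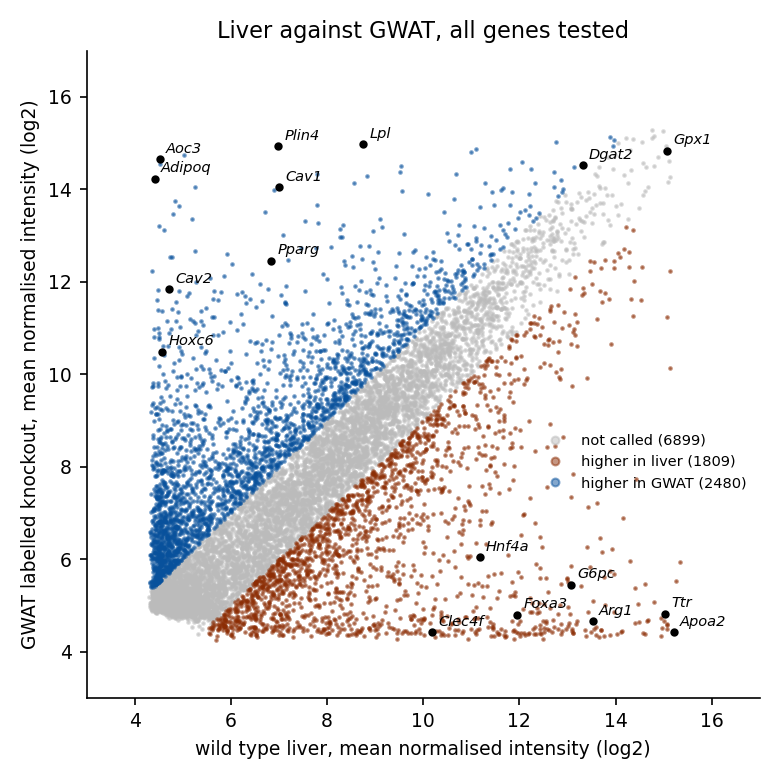
Mean normalised intensity (log2) of each of the 11188 genes tested in wild type liver (x axis) and GWAT labelled knockout (y axis). Brown points were called higher in liver (1809), blue points higher in GWAT (2480) and grey points were not called. Apoa2 and Ttr lie at the lower right, Aoc3 and Adipoq at the upper left, and Gpx1 is bright in both tissues.

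The coat of the caveola was far higher in GWAT. Besides Cav1, 8 of 9 caveola components on the array passed the filter, and 5 were called higher in GWAT, 1 higher in liver and 2 not called, with a median difference of -5.10 (-4.71 with bounded genes at their bound). Cav2, the partner of caveolin-1 in the coat, read 4.62, 4.67 and 4.85 on the liver arrays and 11.83, 11.84 and 11.87 on the GWAT arrays. It was at least 94.6-fold higher in GWAT. The adjusted p of 1.97e-12 belongs to the fitted difference, and Cav2 passed the filter only through the GWAT arrays. Cavin1, which is needed for caveolae to form, read 6.27, 5.71 and 4.69 on the liver arrays and 12.01, 11.86 and 12.37 on the GWAT arrays. Every GWAT array was far above every liver array for both genes, and Cavin1 was higher in GWAT by log2 6.52 (SE 0.32, adjusted p = 3.67e-08). Cavin3 read 5.61, 6.09 and 6.04 on the liver arrays and 12.67, 12.61 and 12.55 on the GWAT arrays, 104-fold higher in GWAT. Cavin2, which the liver arrays held well above background, was higher in GWAT by log2 4.88 (SE 0.10). Ehd2, the ATPase at the neck of the caveola, was at least 23.2-fold higher in GWAT.

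Not every member followed this order. Pacsin3, a membrane-bending protein of the muscle caveola, was higher in liver by log2 1.39 (SE 0.15, adjusted p = 1.13e-05). Pacsin2, its widely made relative, read 7.28, 7.99 and 7.74 on the liver arrays and 7.84, 7.60 and 7.64 on the GWAT arrays, so the tissues overlapped and the difference of log2 -0.03 was not called. Cavin4, the cavin of muscle, was dim in both and differed by log2 -0.42 without a call. Cav3, the muscle caveolin, did not pass the filter. Of 9 proteins that caveolae carry or work with, 5 were called higher in GWAT and 1 in liver. Anxa2, a calcium-dependent membrane linker, was 31.1-fold higher in GWAT, while Insr, the insulin receptor, was higher in liver by log2 1.12 (SE 0.07). Without the quantile step Insr was not called and differed by log2 0.88.

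**Figure D2:**
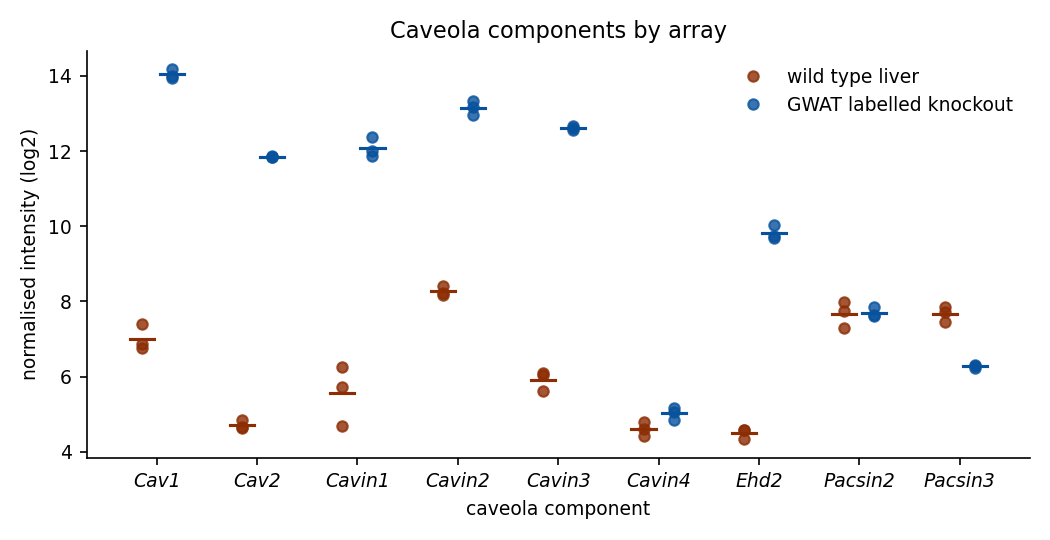
Normalised intensity (log2) of the 9 caveola components on each array of wild type liver (brown) and GWAT labelled knockout (blue); bars are group means of 3 arrays. Cav1, Cav2, Cavin1, Cavin2, Cavin3 and Ehd2 are separated upward in GWAT, Pacsin3 in liver, and Pacsin2 overlaps.

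The largest differences in favour of liver were in plasma proteins. For the 10 largest each way, a gene with a bound was ranked by it and any other gene by its fitted difference. Unannotated symbols were passed over. Apoa2, an apolipoprotein of high-density lipoprotein, read 15.28, 15.19 and 15.17 on the liver arrays and 4.40, 4.36 and 4.54 on the GWAT arrays. It was at least 1381-fold higher in liver, and its other probe differed by log2 6.82. The adjusted p of 8.15e-14 belongs to the fitted difference, and Apoa2 passed the filter only through the liver arrays. Ttr, the carrier of thyroid hormone and retinol-binding protein, read 15.07, 15.02 and 15 on the liver arrays and 4.72, 4.81 and 4.95 on the GWAT arrays. The rest of the 10 largest were Fga (a fibrinogen chain, at least 1150-fold), Mup2 and Mup21 (urinary pheromone carriers), Ambp (the source of bikunin), Hpx (haem binding, at least 1164-fold), Apoa1, Ahsg (fetuin-A) and Mat1a (the hepatic S-adenosylmethionine synthase, 1015-fold). Probes of the Mup family may read near-identical copies, so the Mup values are not specific to 1 gene. Of 17 hepatocyte markers tested, 15 were called higher in liver and none in GWAT, with a median difference of 7.07. The summed linear signal of these markers was 254160 to 259869 in liver and 41774 to 45522 in GWAT, and without the 2 markers that were not called, 187403 to 188181 in liver and 566 to 674 in GWAT. The second sum was added after the values were seen. It holds only markers called higher in liver, so its separation of the tissues follows from that choice.

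Named after their values were seen, Cyp2e1 and Trf were the hepatocyte markers not called, with differences of log2 0.50 and log2 0.94. Cyp2e1, an ethanol-oxidising cytochrome P450, read 15.15, 15.17 and 15.01 on the liver arrays and 14.69, 14.50 and 14.65 on the GWAT arrays. Its GWAT values were high on all 3 arrays and lay just below those of liver. Alb, the gene of serum albumin, also named after its values were seen, read 8.13, 8.13 and 7.87 on the liver arrays and 4.70, 4.58 and 4.55 on the GWAT arrays and was at least 9.57-fold higher in liver. Whether this probe reports the level of Alb was not tested. Trf, the iron carrier transferrin, read 15.14, 15.08 and 15.04 on the liver arrays and 14.18, 14.13 and 14.15 on the GWAT arrays.

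The secretory programme of liver was wide. Apolipoproteins and their assembly factors were called higher in liver for 16 of 17 tested, with a median of 7.70. Apoc3, a brake on lipoprotein lipase, was 685-fold higher in liver, and the 1 gene on the list called in GWAT was Pltp, the phospholipid transfer protein, by log2 2.45. Coagulation factors and fibrinolysis genes were split, with 16 of 22 higher in liver and 5 in GWAT. Kng1 (kininogen) and Serpinf2 (antiplasmin) led in liver, at 849-fold and at least 481-fold. Plat and Plau, the plasminogen activators, and F13a1, a clot-linking transglutaminase made by macrophages, were higher in GWAT by at least 11.7-fold, at least 16.1-fold and at least 48.8-fold.

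Complement genes were split between the tissues. In liver 14 of 23 genes were called higher, led by C9, C8b and Cfi, of the membrane attack complex and its control, at least 655-fold, 170.3-fold and 235-fold. In GWAT 4 were called higher. C7, the one late component of these, read 4.58, 4.98 and 4.41 on the liver arrays and 9.16, 8.77 and 8.75 on the GWAT arrays and was higher in GWAT by at least 12.2-fold. C1qa and C1qc, chains of the C1q recognition molecule that macrophages make, were higher in GWAT by log2 1.25 and log2 1.67. Centring on the median gene left 1 complement gene called in GWAT. Acute phase genes were called higher in liver for 16 of 21, with Hamp, the iron hormone hepcidin, at least 882-fold and Itih1, an inter-alpha-trypsin inhibitor chain, at least 437-fold. Lcn2, an iron-siderophore binding protein, was the 1 acute phase gene called in GWAT, by log2 2.34.

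Genes of nitrogen, bile acid and drug handling were nearly all on the liver side. The urea cycle and amino acid list had 19 of 20 tested called higher in liver, with a median of 4.38, and none in GWAT. Arg1, the arginase that releases urea, read 13.50, 13.50 and 13.58 on the liver arrays and 4.70, 4.74 and 4.53 on the GWAT arrays, and Gnmt, the glycine methyltransferase, was 696-fold higher in liver. Named after its value was seen, Oat, ornithine aminotransferase, was the 1 gene on this list not called, at log2 0.06. All 14 bile acid genes tested were called higher in liver, with a median of 6.56. Cyp8b1, the sterol hydroxylase that sets the cholic acid share, read 13.41, 13.38 and 13.32 on the liver arrays and 4.52, 4.45 and 4.43 on the GWAT arrays, at least 384-fold higher in liver. Cyp7b1, the oxysterol hydroxylase, was 284-fold higher.

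Cytochrome P450 genes were called higher in liver for 27 of 31, with Cyp2c70, which makes muricholic acids in mice, at least 834-fold, Cyp2f2 at 519-fold and Cyp2d10 at 553-fold. Probes of the Cyp2c and Cyp2d families may read near-identical copies. Cyp1b1, Cyp2s1 and Cyp4b1, P450s made mainly outside the liver, were called higher in GWAT by at least 4.18-fold, log2 2.76 and log2 2.29. Conjugating enzymes were called higher in liver for 23 of 33. Nnmt, which methylates nicotinamide, read 10.02, 9.28 and 10.02 on the liver arrays and 12.28, 12.37 and 12.41 on the GWAT arrays, and with Gstm2 and Gstm5 it made up the 3 conjugating genes called in GWAT, of which Gstm2 lost its call when centred (-0.08).

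On the GWAT side the largest differences were in adipocyte genes. Aoc3, the membrane amine oxidase of adipocytes and vessels, read 4.44, 4.68 and 4.44 on the liver arrays and 14.65, 14.69 and 14.61 on the GWAT arrays, at least 662-fold higher in GWAT. The adjusted p of 1.31e-13 belongs to the fitted difference, and Aoc3 passed the filter only through the GWAT arrays. Its other probe differed by log2 -1.90. Adipoq, the gene of adiponectin, read 4.40, 4.43 and 4.41 on the liver arrays and 14.21, 14.23 and 14.27 on the GWAT arrays, and Lep, the gene of leptin, read 5.33, 4.80 and 5.62 on the liver arrays and 13.99, 14.05 and 14.09 on the GWAT arrays. All 3 GWAT arrays were bright for both hormones, and every liver array was far lower. The rest of the 10 largest were Plin4 (a lipid droplet coat protein), Sncg (gamma-synuclein, at least 708-fold), Gsn (gelsolin, an actin severing protein, 481-fold), Nnat (neuronatin, 420.2-fold), Prkar2b (the adipocyte regulatory subunit of protein kinase A, 289-fold), Rgcc (a regulator of the cell cycle, at least 292-fold) and Tmem45b (a membrane protein, at least 616-fold). Plin4 was already above background in liver and was 246-fold higher in GWAT.

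Of 15 adipocyte markers tested, 14 were called higher in GWAT and none in liver, with a median of -5.63 (-5.32 with bounded genes at their bound). Their summed linear signal was 147153 to 153189 in GWAT and 8460 to 10670 in liver. The exception was Fabp4, the adipocyte fatty acid-binding protein. Its probe read 4.99, 4.47 and 4.34 on the liver arrays and 5.24, 4.93 and 5.18 on the GWAT arrays, below background on the liver arrays and dim on the GWAT arrays. Its difference of log2 -0.52 (SE 0.21) was not called, and no other probe passed the filter. Whether this probe reports the level of Fabp4 was not tested. Cfd, the adipokine adipsin, was not analysed here.

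Several functions that both organs share had 1 form higher in liver and another higher in GWAT. The forms were listed for the tissue they are known from, with earlier results of these data known, so these counts are a description. Of 22 functions with a form known for liver and a form known for fat, 10 had both forms tested, and in 9 of these the liver form was called higher in liver and the fat form higher in GWAT. Over all forms, 10 of 14 liver forms were called higher in liver and 2 in GWAT, with a median of 2.40, and 14 of 16 fat forms were called higher in GWAT and none in liver, with a median of -3.32. The glucose carriers parted this way. Slc2a2 (GLUT2) read 8.78, 8.22 and 8.73 on the liver arrays and 4.40, 4.36 and 4.47 on the GWAT arrays. Slc2a4 (GLUT4), the insulin-responsive carrier, read 5.17, 5.38 and 4.73 on the liver arrays and 9.97, 10.02 and 10.03 on the GWAT arrays. Neither carrier had overlapping groups. Slc2a2 was at least 13.9-fold higher in liver, and Slc2a4, above background on 1 of 3 liver arrays, was higher in GWAT by log2 4.92 (SE 0.16).

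Among the later steps of glucose use, the pyruvate kinase Pklr was at least 8.2-fold higher in liver and Pkm was higher in GWAT by log2 3.51. Of the glycogen synthases, Gys2 was higher in liver by log2 1.61, a call lost without the quantile step (0.777), and Gys1 was at least 2.43-fold higher in GWAT. The lipid forms were further apart. Slc27a5, the fatty acid transport protein that also activates bile acids, was at least 292-fold higher in liver, and Slc27a1 was at least 22.1-fold higher in GWAT. The aquaglyceroporins, which carry glycerol, showed the same order, with Aqp9 reading 13, 13.10 and 13.13 on the liver arrays and 7.46, 7.71 and 6.87 on the GWAT arrays and Aqp7 reading 4.51, 4.49 and 4.54 on the liver arrays and 10.75, 10.83 and 10.83 on the GWAT arrays. Cideb, of lipoprotein loading, was 51.2-fold higher in liver, and Cidec, of droplet fusion, was 101-fold higher in GWAT. Of the perilipins, Plin5 differed by log2 2.0, and Plin1 was at least 40-fold higher in GWAT, while its other probe differed by log2 -0.76. The nuclear receptors Ppara and Pparg differed by log2 2.80 and log2 -5.63.

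Some forms did not part by tissue. Dgat2, an acyltransferase of the last step of triglyceride synthesis listed for liver, read 13.20, 13.43 and 13.32 on the liver arrays and 14.42, 14.58 and 14.58 on the GWAT arrays and was called higher in GWAT by log2 1.21, as was Dgat1 by log2 2.74. Dgat2 turned to 0.185 when centred on the median gene and lost its call without the quantile step (-0.968). Acacb, the acetyl-CoA carboxylase form that controls fatty acid oxidation, was also called higher in GWAT, by log2 1.03, but lost its call without the third liver array (-0.887) or when centred (-0.268). The pair of Lpin2 and Lpin1 did part, with the liver form Lpin2 higher in liver by log2 4.60 and the fat form Lpin1 differing by log2 -1.04. The other probe of Lpin1 differed by log2 0.098. Lpin1 lost its call without the first liver array (-0.904), the second liver array (-0.901) or the first GWAT array (-0.948), or when centred (-0.216). Pygl, the liver glycogen phosphorylase, differed by log2 0.06 and Irs2, an insulin receptor substrate, by log2 -0.77, with no call. Pygl was called in liver when centred (1.426), and Irs2 in GWAT without the quantile step (-1.363). Cpt1b, the muscle and fat form of the mitochondrial entry enzyme, read 6.02, 6.44 and 6.56 on the liver arrays and 5.50, 5.57 and 5.65 on the GWAT arrays, and its difference of log2 0.76 was under 2-fold.

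**Figure D3:**
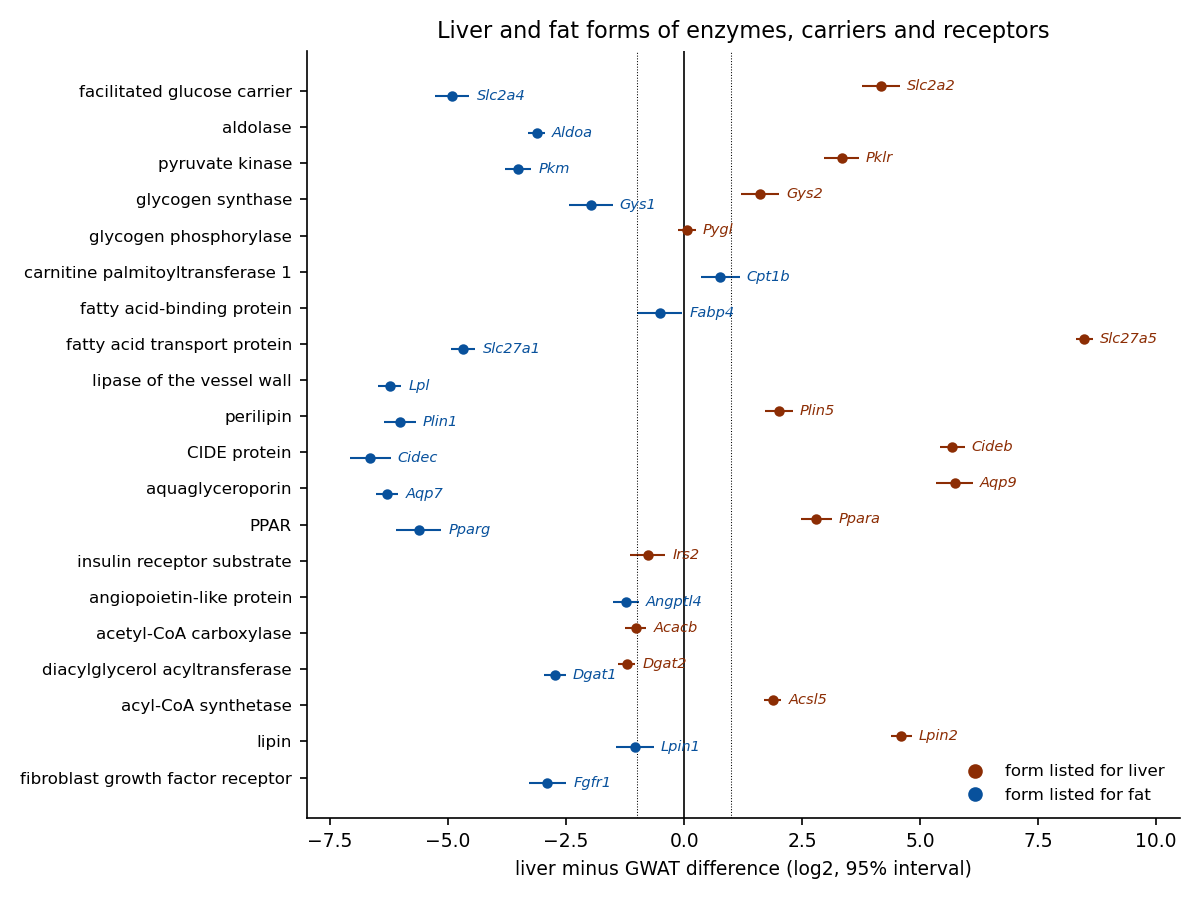
Liver minus GWAT difference (log2, with 95% interval) of each tested liver form (brown) and fat form (blue), grouped by function. Dotted lines mark the 2-fold limits. Slc27a5 (fitted log2 8.48) and Cidec (log2 -6.65) lie farthest to either side, while Dgat2 and Acacb fall on the GWAT side.

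Storage and release of fat were mainly on the GWAT side. Lpl, the lipase that frees fatty acids from lipoproteins at the vessel wall, read 8.54, 8.68 and 9.01 on the liver arrays and 14.92, 14.97 and 15.07 on the GWAT arrays, 75.6-fold higher in GWAT (adjusted p = 1.39e-11). Of 13 genes of fatty acid uptake and lipoprotein hydrolysis, 5 were called on each side, with Vldlr, a lipoprotein receptor, higher in GWAT by log2 4.0 and Angptl8, a secreted inhibitor of Lpl in partnership with its relatives, higher in liver by log2 2.24. Angptl4, which inhibits Lpl in fasting, was higher in GWAT by log2 1.23, but turned to 0.123 when centred. Lipid droplet proteins were called in GWAT for 7 of 14 and in liver for 3, among them Fitm1, a droplet-forming membrane protein, by at least 8.8-fold. Of 11 lipolysis genes tested, 7 were called higher in GWAT and 2 in liver, with a median of -1.79. Lipe, hormone-sensitive lipase, was 54.7-fold higher in GWAT, Hcar1, the lactate receptor that restrains lipolysis, at least 45.98-fold, and Pnpla3, a lipase of the patatin family, 105-fold. Aadac and Ces1f, lipases of the hepatocyte endoplasmic reticulum, were higher in liver by at least 3.7-fold and log2 2.27. Triglyceride assembly had 9 of 15 genes called in GWAT and 4 in liver. Gpat3, the glycerol phosphate acyltransferase of fat, was 12.7-fold higher in GWAT, and Agpat3, another acyltransferase, was higher in liver by log2 1.58, a call lost without the quantile step (0.567). Centring left 5 of the assembly genes called in GWAT and 6 in liver.

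Fatty acid synthesis was divided. Fasn, the fatty acid synthase, read 4.50, 4.49 and 4.68 on the liver arrays and 6.26, 6.73 and 6.92 on the GWAT arrays and was higher in GWAT by at least 2.56-fold, and Scd2, a desaturase, by at least 4.76-fold. The Fasn probe was below background on the liver arrays, no other probe passed the filter, and it differed by log2 -0.91 in the other 6 arrays. Whether this probe reports the level of Fasn was not tested. Scd1 differed by log2 -1.10, but turned to 0.349 when centred and lost its call without the third liver array (-0.917) or the quantile step (-0.803). The elongases and desaturase of longer fatty acids were on the liver side, with Elovl2 higher by at least 17.01-fold, Elovl3 by log2 3.12 and Fads2 by log2 3.05. Over the list, 6 of 16 were called in liver and 4 in GWAT. Fatty acid oxidation had 6 of 19 called in liver and 1 in GWAT. Ehhadh and Acaa1b, of the peroxisomal pathway, were higher in liver by log2 3.29 and log2 2.36, and Crat, carnitine acetyltransferase, was higher in GWAT by log2 2.46. With centring, 12 oxidation genes were called in liver.

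The handling of ketone bodies was opposite in make and use. Bdh1, which makes hydroxybutyrate, read 11.25, 11.22 and 11.23 on the liver arrays and 5.39, 5.66 and 5.23 on the GWAT arrays, while Oxct1, the transferase that lets tissues burn ketone bodies and that hepatocytes are known to lack, read 6.58, 6.47 and 6.74 on the liver arrays and 11.98, 11.88 and 11.98 on the GWAT arrays. The fold was 55.9 for Bdh1 in favour of liver and 40.7 for Oxct1 in favour of GWAT. Cholesterol synthesis had 7 of 13 genes called in liver and none in GWAT, with Lss, Dhcr7 and Fdps higher by log2 2.83, log2 2.80 and log2 2.26, although without the quantile step 3 were called in GWAT. The other probe of Lss differed by log2 -0.29. Glucose release was on the liver side for 9 of 14 genes. G6pc, the last enzyme of glucose release, was 199-fold higher, Fbp1 73.8-fold and Gckr, the inhibitor of glucokinase, at least 35.3-fold. Pygb, the brain form of glycogen phosphorylase, read 5.82, 5.56 and 5.06 on the liver arrays and 11.38, 11.42 and 11.50 on the GWAT arrays, on the GWAT side. Glycolysis had 4 of 18 called in liver and 6 in GWAT, and its median went from -0.29 to 0.46 when centred.

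Hormones and their receptors differed in kind. Of 26 secreted hormones and carriers, 16 were called in liver and 6 in GWAT. Gcgr, the glucagon receptor, read 10.55, 10.18 and 9.91 on the liver arrays and 4.93, 5.06 and 4.78 on the GWAT arrays, and Avpr1a, a vasopressin receptor, was 5.19-fold higher in liver. Egfr, the epidermal growth factor receptor, was higher in liver by log2 3.72. Npr3, the clearance receptor of natriuretic peptides, read 4.76, 4.64 and 4.95 on the liver arrays and 12.57, 12.55 and 12.49 on the GWAT arrays, and Igf1r, the receptor of insulin-like growth factor 1, was higher in GWAT by log2 2.36. Downstream of the insulin receptor, Akt2 was higher in GWAT by at least 10.2-fold and Grb10, an adaptor that restrains the receptor, by log2 3.05. Its relative Grb14 was higher in liver by log2 2.44. In all, 3 of 15 insulin signalling genes were called on each side, near the shares of all genes tested (16.2% in liver and 22.2% in GWAT). Without the quantile step 1 was called in liver and 8 in GWAT, a setting where GWAT held 82.2% of all calls.

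Transcription factors marked each organ. Of 34 tested, 17 were called in liver and 6 in GWAT, with a median of 0.80 that went to -0.16 without the quantile step. Foxa3, a pioneer factor of hepatocytes, read 11.84, 12.08 and 11.95 on the liver arrays and 4.84, 4.76 and 4.81 on the GWAT arrays. Nr1i3 (CAR, a sensor of foreign compounds) was at least 102-fold higher in liver and Onecut2, a factor of liver and bile duct development, at least 83.1-fold. Hnf4a, a master regulator of the hepatocyte and 1 of the hepatocyte markers, read 11.09, 11.29 and 11.15 on the liver arrays and 6.07, 6.0 and 6.08 on the GWAT arrays. In GWAT, Pparg, the master regulator of the adipocyte, read 6.33, 7.41 and 6.77 on the liver arrays and 12.52, 12.49 and 12.38 on the GWAT arrays, and its partners in fat cell formation Ebf2 and Ebf1 were higher by at least 15.01-fold and log2 3.73.

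Hox genes, which set position along the body axis, were called higher in GWAT for 12 of 23 tested, with a median of -1.42 (-1.10 with bounded genes at their bound). Hoxc6 read 4.60, 4.57 and 4.55 on the liver arrays and 10.46, 10.45 and 10.57 on the GWAT arrays, at least 37.02-fold higher in GWAT. Hoxa7 was at least 21.5-fold higher and Hoxb7 15.5-fold. The 1 gene called in liver was Hoxa13, the most posterior gene of its cluster, at log2 1.02. It lost its call without the third liver array (0.946), the first GWAT array (0.997) or the second (0.985), and was -0.003 without the quantile step and -0.021 in the other 6 arrays. A further 15 Hox genes did not pass the filter.

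To show the sequence in front of genes that differed, promoters from the RefSeq table of GRCm38.p6 were searched for short motifs over the 250 bases before the start, on both strands. Of 11188 genes tested, 9013 had a promoter in the table. The sets of genes at least 8-fold higher were cut on fitted differences, not on bounds. Shares are given over the 11592 promoters of the genes tested and, in brackets, over all 32851 promoters of the table. The HNF4 motif CAAAGTCCA was present in 0.466% (0.384%), in 11 of the 503 promoters of genes at least 8-fold higher in liver (2.19%) and in 2 of the 461 promoters of genes at least 8-fold higher in GWAT (0.434%). The HNF1 motif, GTTAAT and ATTNA separated by 1 base, was present in 0.147% (0.152%), in 8 promoters of the liver genes (1.59%) and in 0 of the GWAT genes. The direct repeat of AGGNCA with 1 base between the copies, bound by nuclear receptors such as HNF4 and PPAR with RXR, was present in 0.311% (0.338%), in 8 of the liver genes (1.59%) and in 1 of the GWAT genes (0.217%). The EBF motif, TCCC and GGGA separated by 2 bases, was present in 0.992% (0.779%), in 2 of the liver genes (0.398%) and in 8 of the GWAT genes (1.74%). The CEBP motif TTGCNNAA, of factors that both cell types use, was present in 8.16% (9.56%), in 83 of the liver genes (16.5%) and in 43 of the GWAT genes (9.33%). These counts are few for every motif but CEBP, and no test was made on them. The direct repeat and the HNF4 motif are different spellings of sites that HNF4 can bind, and the EBF motif reads the same on both strands. A match in this window is a description of the letters.

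The 6 promoters with a match were chosen after values and matches were seen, to set liver genes beside fat genes; each is written 5′ to 3′ on the strand of its gene, and capitals mark the motif. The first pair, with the HNF4 motif, are Cyp8b1 (chr9:121916306-121916555, minus strand, motif starting 67 bases before the start) and Cyp2c70 (chr19:40187287-40187536, minus strand, 64 bases before).
Cyp8b1: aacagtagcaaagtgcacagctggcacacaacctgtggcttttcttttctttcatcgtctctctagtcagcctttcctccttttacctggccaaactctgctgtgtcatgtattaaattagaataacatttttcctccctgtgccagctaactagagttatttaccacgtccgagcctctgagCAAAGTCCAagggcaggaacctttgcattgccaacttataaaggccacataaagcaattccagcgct
Cyp2c70: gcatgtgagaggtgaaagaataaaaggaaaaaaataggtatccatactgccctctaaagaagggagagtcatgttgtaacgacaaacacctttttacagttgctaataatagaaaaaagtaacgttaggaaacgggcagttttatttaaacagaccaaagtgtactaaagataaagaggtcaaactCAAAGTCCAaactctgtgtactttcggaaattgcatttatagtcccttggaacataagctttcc
Sult1d1, a sulfotransferase (chr5:87569007-87569256, minus strand), holds the HNF1 motif 79 bases before the start, and Asgr1, the asialoglycoprotein receptor (chr11:70053874-70054123, plus strand), holds the direct repeat 152 bases before the first of its 2 starts.
Sult1d1: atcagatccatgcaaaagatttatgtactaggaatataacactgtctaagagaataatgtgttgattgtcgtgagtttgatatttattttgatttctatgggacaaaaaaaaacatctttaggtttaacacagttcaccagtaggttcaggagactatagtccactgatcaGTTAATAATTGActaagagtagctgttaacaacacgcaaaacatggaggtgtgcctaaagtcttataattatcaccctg
Asgr1: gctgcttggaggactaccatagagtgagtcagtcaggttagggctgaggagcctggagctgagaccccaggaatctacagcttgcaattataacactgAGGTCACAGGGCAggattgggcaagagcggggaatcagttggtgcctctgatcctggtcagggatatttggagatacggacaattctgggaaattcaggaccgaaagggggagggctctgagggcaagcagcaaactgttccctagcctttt
Hcar1 (chr5:123880004-123880253, minus strand) and Plin4 (chr17:56109783-56110032, minus strand), of the fat side, hold the EBF motif 163 and 237 bases before the start.
Hcar1: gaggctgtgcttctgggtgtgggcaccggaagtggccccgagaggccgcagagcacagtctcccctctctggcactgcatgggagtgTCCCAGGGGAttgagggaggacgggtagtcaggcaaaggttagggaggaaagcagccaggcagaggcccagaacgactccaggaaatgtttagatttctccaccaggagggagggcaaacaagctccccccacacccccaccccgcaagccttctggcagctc
Plin4: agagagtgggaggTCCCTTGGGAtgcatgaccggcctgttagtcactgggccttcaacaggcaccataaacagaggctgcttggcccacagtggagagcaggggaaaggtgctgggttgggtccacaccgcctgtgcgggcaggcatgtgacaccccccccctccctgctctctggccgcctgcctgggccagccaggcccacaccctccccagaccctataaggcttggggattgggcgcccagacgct
Sult1d1 read 9.65, 9.43 and 10.18 on the liver arrays and 4.93, 4.54 and 4.63 on the GWAT arrays, with another probe at log2 0.09, and Asgr1 read 13.17, 13.18 and 13.26 on the liver arrays and 4.63, 4.76 and 4.58 on the GWAT arrays. Both promoters of Cav1 and the promoter of Cav2 had no match to the HNF4, HNF1, direct repeat or EBF motif.

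The cells that line vessels differed in type. All 14 markers of continuous endothelium, the kind that bears caveolae, were called higher in GWAT, with a median of -2.49. Ly6c1 was 76.3-fold higher, and Pecam1 and Cldn5, junction proteins of endothelial cells, were higher by log2 3.35 and log2 3.11. Of 11 markers of the fenestrated liver sinusoid, 7 were called in liver. Clec4g, a lectin of the sinusoid, read 12.33, 12.23 and 12.24 on the liver arrays and 4.91, 4.90 and 4.77 on the GWAT arrays, and Stab2, a scavenger receptor, and Dnase1l3, a nuclease, were higher in liver by log2 3.73 and log2 4.31. Lyve1, the hyaluronan receptor that lymphatic vessels and some fat macrophages also carry, was higher in GWAT by log2 2.30, and in the other 6 arrays it differed by log2 -0.49 with no call.

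Kupffer cell markers were called in liver for 4 of 9 and in GWAT for 1, with a median of 0.80, against 4 and 2 with a median of 0.05 without the quantile step. Clec4f, the lectin of Kupffer cells, read 9.84, 10.27 and 10.42 on the liver arrays and 4.41, 4.45 and 4.43 on the GWAT arrays, at least 42.04-fold higher in liver, and C6 (which hepatocytes also make) and Slc40a1, the iron exporter, were higher by log2 5.53 and log2 2.93. Folr2, a folate receptor of resident macrophages, was the 1 Kupffer marker called in GWAT, by log2 2.84. General macrophage and fat macrophage markers were called in GWAT for 8 of 11 and in liver for none. Lyz2, lysozyme, read 8.73, 8.84 and 9.03 on the liver arrays and 12.77, 12.74 and 12.81 on the GWAT arrays, and Gpnmb, of lipid-laden macrophages, was at least 8.79-fold higher in GWAT. Lpl, on this list, is also an adipocyte product. Mast cell and granulocyte markers had 4 of 9 called in GWAT, among them the mast cell proteases Cma1, Cpa3 and Mcpt4 by at least 2.42-fold, at least 2.54-fold and log2 1.88, and 1 in liver, the neutrophil gene S100a9, by log2 2.40. Of 5 lymphocyte markers, Nkg7 alone was called, in GWAT by at least 2.11-fold.

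Most matrix genes were higher in GWAT. Of 31 matricellular, elastic and basement membrane genes, 26 were called in GWAT and 1 in liver, with a median of -3.30. Mfap5, a microfibril protein, read 4.45, 4.37 and 4.40 on the liver arrays and 10.81, 11.07 and 11.04 on the GWAT arrays, and Fbln2 and Ogn were at least 48.6-fold and 49.3-fold higher in GWAT. Vtn, vitronectin, a plasma protein of the hepatocyte, was the 1 called in liver, 102-fold higher. Collagen chains were called in GWAT for 13 of 18. Col6a1 read 7.08, 7.18 and 7.31 on the liver arrays and 12.59, 12.58 and 12.27 on the GWAT arrays, and Col15a1 and Col5a1 were 28.2-fold and 21.6-fold higher. Col18a1, whose fragment is endostatin, and Col27a1 were higher in liver by log2 1.60 and log2 2.40. Fibroblast and stellate cell markers were called in GWAT for 9 of 14 and in liver for 3, with Pi16 and Dpt higher in GWAT by log2 5.54 and log2 5.0, while Reln, Hgf and Ngfr, known from hepatic stellate cells, were higher in liver by log2 3.71, log2 2.01 and log2 1.53. Without the quantile step Ngfr lost its call (0.662).

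The muscle and mesothelial markers that were called were all higher in GWAT. Muscle genes were called in GWAT for 3 of 6 skeletal and 7 of 8 smooth muscle markers and for none in liver. Another 6 skeletal muscle markers on the array did not pass the filter. The summed linear signal of the skeletal list was 1428 to 2511 in GWAT and 175 to 228 in liver, and that of the smooth muscle list 18016 to 30920 and 2232 to 2763. Acta1, skeletal actin, read 4.61, 4.31 and 4.61 on the liver arrays and 9.81, 10.10 and 10.63 on the GWAT arrays. Tnnc2, a fast troponin, was at least 9.52-fold higher in GWAT, while Tnni2 rested on the third GWAT array, since without it the difference was -0.85 with no call. Actg2, enteric smooth muscle actin, read 4.53, 4.80 and 4.35 on the liver arrays and 11.94, 11.87 and 10.29 on the GWAT arrays, the third GWAT array being the lowest of its group. Mesothelial markers were called in GWAT for 5 of 6, with Upk3b 42.4-fold higher and a summed signal of 4111 to 4322 against 176 to 262.

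Markers of the epididymis and its ducts, which lie beside this fat pad, had 5 of 9 called in GWAT and 2 in liver. Defb20, an epididymal defensin, read 4.47, 5.31 and 4.53 on the liver arrays and 5.43, 9.01 and 9.12 on the GWAT arrays, so that 1 of the 3 GWAT arrays was near the liver level. Fxyd4, an ion pump regulator, read 4.34, 4.65 and 4.30 on the liver arrays and 8.95, 8.73 and 7.20 on the GWAT arrays here and differed by log2 -0.01 in the other 6 arrays. Krt8 and Krt18, keratins that hepatocytes share with ducts, were higher in liver by log2 2.48 and log2 3.21, and the summed list was higher in liver, at 3849 to 4269 against 1922 to 2516. Whether muscle, mesothelial and duct signals came from the fat pad or from tissue beside it was not tested. Nor was their part in the GWAT values above.

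**Figure D4:**
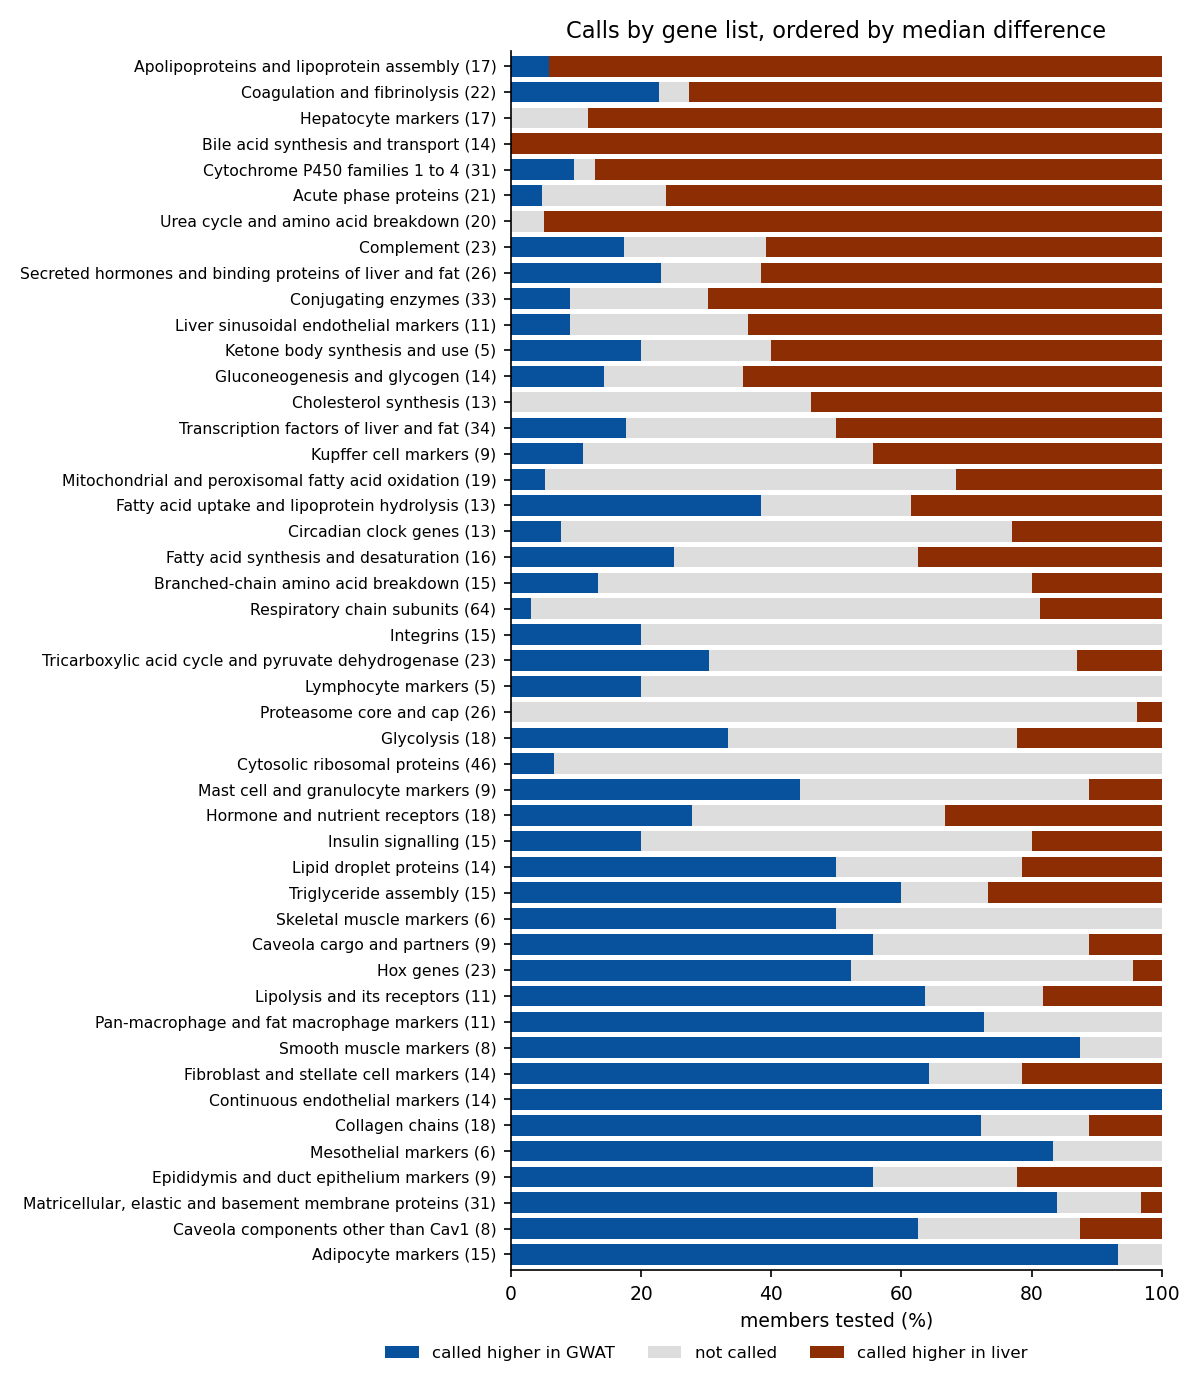
Share of tested members (%) of each gene list called higher in GWAT (blue), not called (grey) and called higher in liver (brown), ordered by median difference, with the number tested in brackets. Apolipoprotein and bile acid genes lie at the liver end and adipocyte, caveola and matrix genes at the GWAT end, and most ribosomal, proteasome and respiratory chain genes were not called.

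Few ribosomal and proteasome genes were called after quantile normalisation. A 95% interval of the difference within 0.5 of 0 was found for 1357 genes, 12.1% of those tested. The brightest of these were Gpx1 (a glutathione peroxidase), Rpl23 (a ribosomal protein), Atp5g3 (an ATP synthase subunit), Dbi (the acyl-CoA-binding protein) and the mitochondrial genes CYTB and ND4. Gpx1 read 15.04, 15.07 and 15.10 on the liver arrays and 14.84, 14.86 and 14.81 on the GWAT arrays, and its difference was log2 0.24. These 6 levels were close on the quantile scale only: when centred all 6 were called higher in liver, from 1.25 for Dbi to 1.714 for Gpx1. Respiratory chain genes were called in liver for 12 of 64 and in GWAT for 2, with a median of 0.00, but for 46 and 2 with a median of 1.27 when centred. Cox7a1 and Cox8b, subunits known from muscle and brown fat, were the 2 called in GWAT, and Cox8b read 4.57, 5.27 and 4.23 on the liver arrays and 9.65, 9.75 and 9.92 on the GWAT arrays. Ribosomal proteins had 3 of 46 called, Rps19, Rps4x and Rps9, all in GWAT, with a median of -0.37, but 15 in liver and none in GWAT when centred, with a median of 0.88. Proteasome genes had 1 of 26 called, Psmd6 in liver by at least 2.1-fold, which lost its call without the quantile step (0.789), where 2 proteasome genes were called in GWAT. Citric acid cycle genes had 7 of 23 called in GWAT, among them Idh3a, Cs and Pdk3 by log2 2.23, log2 1.81 and at least 3.71-fold, and 3 in liver, against 10 in liver and 4 in GWAT when centred.

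A few smaller groups are given as a description only. Over all genes tested, 16.2% were called in liver and 22.2% in GWAT. Of 15 genes of branched-chain amino acid breakdown, 3 were called in liver and 2 in GWAT. Bcat2 and Bcat1, the aminotransferases of its first step, were higher in GWAT by log2 1.88 and log2 1.78. Acadsb, Dld and Aldh6a1 were higher in liver by log2 1.51, log2 1.45 and log2 1.07. Aldh6a1 lost its call without the third liver array (0.993) or the first GWAT array (0.899). No gene of this pathway was called in liver without the quantile step. Among 13 circadian clock genes, Ciart, Nr1d2 and Bhlhe40 were higher in liver by log2 2.60, log2 1.37 and log2 2.48 and Per3 was higher in GWAT by log2 1.22. Nr1d2 lost its call without the quantile step (0.371). Under centring the medians of the lipid droplet, mast cell, receptor, citric acid cycle, integrin, lymphocyte and proteasome lists turned from the GWAT side to the liver side. Without the quantile step those of fatty acid synthesis, fatty acid uptake, branched-chain amino acids and clock genes turned from the liver side to the GWAT side. Of 15 integrins, 3 were called, all in GWAT, led by Itga7 at log2 3.91.

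The tissue difference was measured again in the other 6 arrays, of knockout liver and GWAT labelled wild type, which share no array with the comparison above. There 4282 of 11274 genes were called (38%), 1837 in liver and 2445 in GWAT. Of 4255 genes called here and tested there, 3533 were called the same way (83%), and these were 83.1% of the 4252 called there and tested here. A further 720 were not called there. The 2 called the opposite way, Hps5 and Tfpi, were named after their values were seen and were represented there by another probe. With the same probe their fitted differences were log2 -1.62 and log2 -0.64 for Hps5, and log2 -1.33 and log2 -0.77 for Tfpi, in the same direction.

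Caveola genes kept their direction in arrays where Cav1 was low. By fitted values, which are no bounds, Cav2 differed by log2 -7.13 here and log2 -5.69 there, Cavin1 by log2 -6.52 and log2 -6.48, Cavin2 by log2 -4.88 and log2 -4.92, Cavin3 by log2 -6.70 and log2 -7.20 and Ehd2 by log2 -5.33 and log2 -5.32. Whether these values differ between the sets of arrays was not tested. Pacsin3 differed by log2 1.39 and log2 1.43, and here its call was lost without the quantile step (0.341), without background correction (0.883), at an offset of 50 (0.976) and with the mean of its probes (0.604). Adipoq differed by log2 -9.82 here and log2 -9.88 there, and Apoa2 by log2 10.79 and log2 10.82. Muscle genes differed there by log2 -4.14 for Acta1, log2 -1.73 for Tnnc2 and log2 -3.01 for Actg2.

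**Figure D5:**
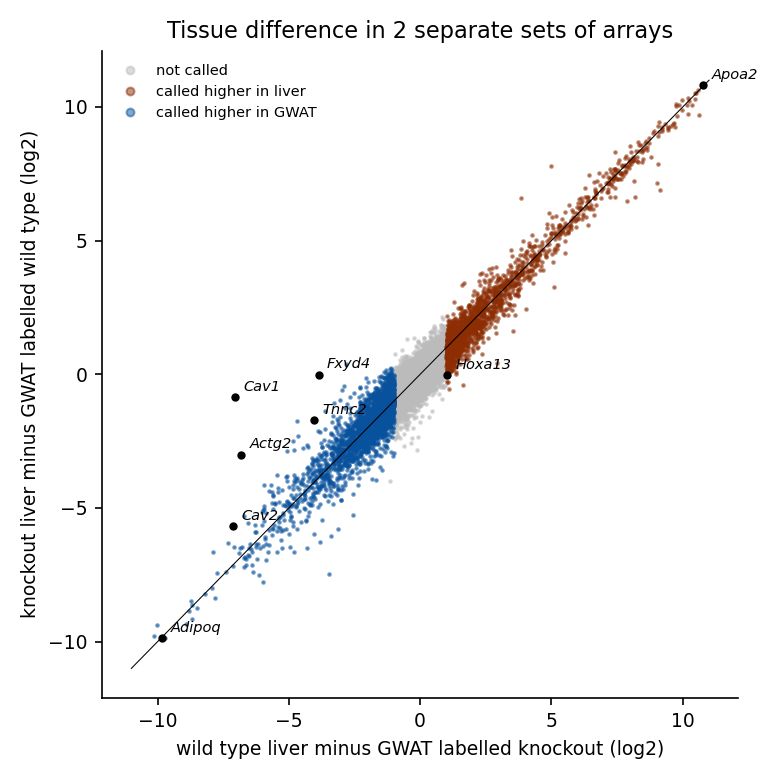
Liver minus GWAT difference (log2) of each gene in the arrays compared here (x axis) and in the other 6 arrays (y axis); the line marks equal values and colours give the call made here. Apoa2 and Adipoq lie on the line, and Cav1, Actg2, Fxyd4 and Tnnc2 lie above it.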

How the data were processed

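The authors deposited 1 table of intensities on a linear scale, with 45281 probes and 12 arrays. The values show that each tissue had been quantile-normalised on its own, since sorted intensities differed by at most 0.384% between liver arrays and 1.02% between GWAT arrays, and that no background had been subtracted. The normalisation software is not named in the labels. Another 48 columns, of non-normalised tables, carry chip positions for names and were left out. Per the labels' protocols, RNA was extracted with Trizol, cleaned on columns and labelled with biotin.

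Probes were named through the platform annotation (34885 with 1 symbol, 18 with several, 10378 with none), and 34807 were matched by Entrez identifier to RefSeq GRCm38.p6 symbols. Background was corrected with limma's normexp model on 1523 receptor probes as negative controls (offset 16, limma 3.58.1 in R 4.3.3). The 6 arrays were then quantile-normalised together and taken to log2. A probe was kept if above background on at least 3 arrays, and the brightest stood for its gene. Tissues were compared in a two-sided limma fit (lmFit, then eBayes with a trend on intensity), adjusted by Benjamini-Hochberg over 11188 genes. Simulated arrays drawn from the wild type liver arrays alone, with 200 changed probes, were also passed through the fit. They hold no difference of scale or background between tissues, so they cannot show how the fit handles one. An exact permutation of 3 against 3 arrays cannot fall below 0.1, so no such test is given.

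Members, gene lists (49, with 1097 entries, 98 without a named probe) and tests were chosen with earlier results of these data known. Genes named are the caveola components, the 10 largest differences each way, the paired forms, up to 3 per list and direction, and the 6 brightest of equal level. Replicate numbers were not treated as pairs, since livers came from mice aged 12 weeks and GWAT from mice aged 8 weeks. Correlations of deviations between liver and GWAT arrays were -0.018 to 0.023, which alone cannot settle pairing. Alternatives covered scaling, background, filter, probe choice, call rule, variance model and the arrays used. The number of arrays limits the precision.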

Additional observations from a re-analysis of the deposited data

Results flagged for a closer look

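The ribosomal protein gene Rpl23, one of the brightest genes of equal level, differed by log2 0.29 between wild type liver and GWAT labelled knockout and by -0.16 between knockout liver and GWAT labelled wild type. Liver was higher on every array of the first set and GWAT on every array of the second, and the difference between the sets was not tested. Its other probes differed by -0.20 and 0.78 in the first set.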

How the results depend on the processing

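The counts of calls moved with the scaling between the tissues and with the call rule. Without the quantile step 1030 genes were called in liver and 4742 in GWAT, and with each array centred on the median gene 2875 were called in liver and 1722 in GWAT. Normal scores of ranks, which use the adjusted p alone, called 7409 (3279 in liver, 4130 in GWAT), and dropping the fold threshold called 8052 (3450 in liver, 4602 in GWAT). Without background correction 1625 were called in GWAT. Counts for all other settings lay within 1.5 times those reported. With 1 array left out, 4238 to 4412 genes were called, 1827 to 1865 in liver and 2411 to 2576 in GWAT. With the replicate number as a block 4290 were called, and the block moved no count by more than 1.5 times. Of 224 named genes over all settings, 5002 values stayed on their side of the threshold, 15 of them uncalled with a changed sign, 112 lost and 23 gained a call, and 10 turned with a call on at least one side. Among these 10, those that turned when centred were Dbi 1.25, Rps19 0.335, Rps4x 0.289, Rps9 0.031, Scd1 0.349, Dgat2 0.185 and Angptl4 0.123. The uncalled Cavin4 (0.461), Fabp4 (0.296) and Pacsin2 (0.17) also changed sign when centred, and Dbi (0.097) and Cpt1b (-0.268) without the quantile step. Hoxa13 turned to -0.003 without the quantile step and to -0.021 in the other 6 arrays. Cav1 turned to 1.417 with GWAT labelled wild type in place of GWAT labelled knockout, by the choice of arrays. The cause was not tested for the others. Genes near background have no order among themselves.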
